A study of Sus scrofa with 12 samples.

Results

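The subcortical maternal complex is a multiprotein assembly that the oocyte builds from maternal transcripts and that lies beneath the cortex of the egg and of the blastomeres of the cleaving embryo. OOEP, NLRP5 (also known as MATER), TLE6 and KHDC3L (FILIA) are its core subunits, and ZBED3 has been described as a further component. PADI6, an egg member of the peptidylarginine deiminase family, is needed for the cytoplasmic lattices, the fibrous stores of the egg cytoplasm to which the complex is linked, and NLRP2 is a maternal-effect relative of NLRP5. NLRP9 and NLRP13 are further genes of the NLRP family that oocytes express. In mice and women, loss of several of these genes stops the embryo at early cleavage, so their transcripts are of interest at the passage from maternal to embryonic control.

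The 9 genes of this group were looked up by symbol in a deposited count table of 29329 genes. OOEP, NLRP5, PADI6, NLRP9 and NLRP13 each had 1 row, and all 5 passed the filter on low counts and were tested among 17995 genes. TLE6, KHDC3L, NLRP2 and ZBED3 had no row under their symbols and were not analysed here. A symbol was carried by 15463 genes, and the remaining rows were not assigned a name.

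The libraries came from porcine (Sus scrofa) embryos made by in vitro fertilization, a library being a pool of several embryos, and were prepared by SMART-seq, in which polyadenylated RNA is copied from an oligo(dT) primer and amplified by PCR. There were 4 groups of 3 libraries: con-2c and con-4c, which the labels call a blank control, and si-2c and si-4c, which received si-CCNB2, a short interfering RNA against cyclin B2, by injection. The oocytes were of Long White pigs and the semen of Landrace boars, no genotype or transgene was given, and the methods call the control embryos both normal and the negative control (NC) group of si-CCNB2. A negative control was among the injected solutions, but the sources do not say outright that the embryos labelled blank control received it, so a difference between si and con can include the injection. The labels did not say that the replicates came from separate cultures, so the p-values measure the spread between these libraries only.

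The groups follow the titles, in which 2c and 4c stand for 2-cell and 4-cell. The tissue label gave the opposite stage in all 12 libraries, so every difference between stages has the opposite sign if the tissue label is read in place of the title. Reading the tissue label leaves the comparisons between si and con unchanged, apart from their stage names.

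Library totals lay between 27785233 and 39510908 counts, and genes with at least 1 count numbered 18034 to 18819 for con-2c, 21181 to 21647 for con-4c, 22105 to 23279 for si-2c and 18083 to 18231 for si-4c. Levels are given as CPM (counts scaled to a TMM-adjusted library total of 1000000), as mean ± SD with n = 3. CCNB2, the targeted gene, was measured at 464 ± 22 CPM for con-2c, 475 ± 42 for con-4c, 22.7 ± 5.6 for si-2c and 42.6 ± 3.7 for si-4c, so that all 6 si libraries lay below all 6 con libraries. EIF1AX and DPPA2, which embryos switch on at genome activation, had 33.2 ± 3.7 and 36.8 ± 0.71 CPM for con-2c against 174 ± 7.2 and 171 ± 13 CPM for con-4c. The order by title was the opposite in the si libraries, with 89.4 ± 4.6 and 87.5 ± 5.8 CPM for si-2c and 40.1 ± 1.5 and 39.8 ± 8.2 CPM for si-4c. The si-4c libraries therefore lay near con-2c, and the si-2c libraries lay between the control groups, below con-4c, in these 2 genes (si-2c vs con-4c -0.96 and -0.97 on the log2 scale, edgeR adjusted p 3.92e-06 and 3.57e-05). Whether the stage names of the si libraries match the embryos in them was not tested with this table, and the results of the 5 genes are accordingly given also across the titles, as si-4c vs con-2c and si-2c vs con-4c. By the chi-square of counts between replicate libraries, si-2c replicate 3 stood apart from the others of its group (42.6 and 43.3 per degree of freedom, against 12.8 between replicates 1 and 2). So did con-2c replicate 3 (26.1 and 31.7, against 15.5) and, at lower values, si-4c replicate 1 (15.77 and 15.75, against 8.32). OOEP gave -1.54 for si-2c vs con-2c and 1.15 for si-4c vs si-2c without si-2c replicate 3. It gave -1.89 for con-4c vs con-2c and -1.62 for si-2c vs con-2c without con-2c replicate 3. Tests of the 5 genes that changed without any of these libraries are given with their comparisons.

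Markers of other cells were at low levels. The 10 cumulus and granulosa cell markers in the table summed to between 35.3 and 50.02 CPM over the 12 libraries, 6 of the 10 were below 1 CPM in all libraries, and HAS2 and FOXL2 had at most 4 and 2 counts in any library. Their sums were 38.7 to 50.02 CPM for con-2c, 35.3 to 41.2 for con-4c, 36.0 to 41.2 for si-2c and 41.6 to 49.4 for si-4c, and SERPINE2 reached 34.6 CPM. Sperm markers (4 in the table) summed to between 6.83 and 16.4 CPM and leukocyte markers (8) to between 3.93 and 8.12 CPM. The sperm sum was lower for con-2c (6.83 to 9.35 CPM) than for con-4c (10.4 to 14.6), si-2c (11.03 to 16.4) and si-4c (9.57 to 11.8). ODF2 carried most of it, with 8.42 ± 1.6 CPM for con-2c, 11.4 ± 1.9 for con-4c, 12.3 ± 3.4 for si-2c and 10.3 ± 1.3 for si-4c. AKAP4, CATSPER1 and ACR had group means of at most 0.65, 0.53 and 0.036 CPM, so the differences of the sperm sum are mainly those of ODF2. The leukocyte sum was higher for con-4c (7.02 to 8.12 CPM) than for con-2c (4.52 to 5.86), si-2c (5.36 to 6.24) and si-4c (3.93 to 5.47). Some of these sums thus differed between the groups compared. The cumulus and granulosa sums of con-2c overlapped with those of each other group, and the sperm sums of con-4c with those of si-2c and si-4c. The part of these markers in the results was not tested. The 21 oocyte factors in the table, the defining transcripts of the egg, summed to 25695 to 31132 CPM for con-2c, 14749 to 15131 for con-4c, 13762 to 15918 for si-2c and 28719 to 31083 for si-4c. BTG4 made up a large part of these sums, with 18571 ± 2719 CPM for con-2c, 7682 ± 462 for con-4c, 7897 ± 948 for si-2c and 19671 ± 1113 for si-4c.

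OOEP (ENSSSCG00000004285), a small KH-domain protein at the core of the complex, lies on chromosome 1 at chr1:53006898-53007877 in Sscrofa11.1. Its level was 1263, 1435 and 1317 CPM in the con-2c libraries and 360.0, 375 and 378 CPM in the con-4c libraries. In the si-2c libraries it was 436, 487 and 397 CPM, and in the si-4c libraries 1071, 992 and 1017 CPM. The libraries thus formed a high set (con-2c and si-4c) and a low set (con-4c and si-2c), and no library of one set overlapped with the other. The group means were 1338 ± 88, 371 ± 9.6, 440 ± 45 and 1027 ± 40 CPM (con-2c, con-4c, then si-2c, si-4c), and the highest was 3.61 times the lowest.

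**Figure D1:**
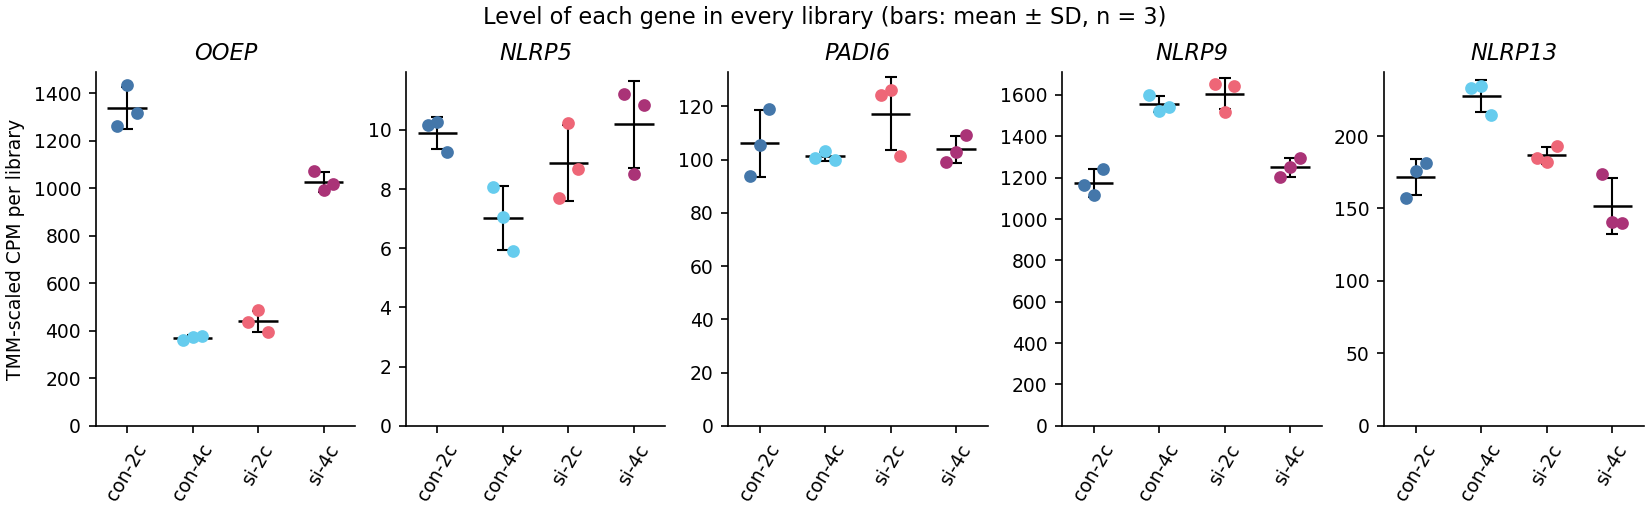
Level of each of the 5 measured genes in every library (points, TMM-scaled CPM, linear axes from 0) by group, with the mean and SD of the 3 libraries. OOEP separates con-2c and si-4c (992 CPM and above) from con-4c and si-2c (487 CPM and below), NLRP9 has the opposite order, and the PADI6 libraries overlap between all groups.

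NLRP5 (ENSSSCG00000044019), an NLRP protein without which the complex does not form in mouse eggs, lies at chr6:60375670-60418908. It had 10.2, 10.3 and 9.25 CPM for con-2c, 8.06, 7.06 and 5.92 CPM for con-4c, 7.70, 10.2 and 8.69 CPM for si-2c, and 11.2, 8.50 and 10.8 CPM for si-4c. All con-4c libraries were below all con-2c and all si-4c libraries, while the si-2c libraries overlapped with every other group. With 182 to 405 counts per library it was the least sampled of the 5 genes, and its SD within a group reached 15.3% of the mean.

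PADI6 (ENSSSCG00000003484) lies at chr6:75969855-75987097. It had 94.0, 105 and 119 CPM for con-2c, 101, 103 and 99.9 CPM for con-4c, 124, 126 and 101 CPM for si-2c, and 99.2, 103 and 109 CPM for si-4c. The groups overlapped in each of the 6 comparisons, and the highest group mean was 1.16 times the lowest.

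NLRP9 (ENSSSCG00000003307), known from rodents to act also as a cytosolic sensor in the gut, lies at chr6:59941318-59974129. Its level was 1165, 1114 and 1244 CPM for con-2c and 1602, 1523 and 1544 CPM for con-4c. It was 1654, 1519 and 1644 CPM for si-2c and 1205, 1251 and 1297 CPM for si-4c. Here con-4c and si-2c were the high set and con-2c and si-4c the low set, again with no overlap, and the highest group mean was 1.37 times the lowest.

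NLRP13 (ENSSSCG00000024227), an NLRP gene whose function in the embryo is not well known, lies at chr6:60283998-60346869. It had 157, 176 and 181 CPM for con-2c, 233, 235 and 215 CPM for con-4c, 185, 182 and 193 CPM for si-2c, and 174, 141 and 140.1 CPM for si-4c. The con-4c libraries stood above those of the other 3 groups, the si-2c libraries came next, and con-2c and si-4c overlapped.

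The first comparison asked which of these transcripts differed between the titled stages of control embryos. In con-4c vs con-2c, OOEP fell, with 0.277 times its con-2c level, NLRP5 fell to a smaller extent, NLRP9 and NLRP13 rose by less than 2-fold, and PADI6 did not pass the test. The log2 fold change of OOEP was -1.85 (SE 0.08, edgeR adjusted p 3.05e-11), which by p-value placed it second among the 584 genes called lower. NLRP9 rose by 0.41 (SE 0.07, adjusted p 0.000216) and NLRP13 by 0.41 (SE 0.09, adjusted p 0.00193) on the same scale. NLRP5 fell by 0.50 (SE 0.17, adjusted p 0.0318), and no longer passed the test with any 1 of 4 libraries left out (con-2c replicates 1 and 2 and con-4c replicates 2 and 3, adjusted p 0.0819, 0.0828, 0.0715 and 0.137). The PADI6 difference was -0.07, with a 95% interval from -0.28 to 0.14.

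A gene was called when its adjusted p was below 0.05 and its level differed at least 2-fold. By this rule con-4c had 0 of the 5 genes higher and 1 lower, where 14.4% of all genes tested were called higher and 3.25% lower. With no minimum fold 2 of 5 were higher and 2 lower, against 20.7% and 15.1% of all genes, and 4 of 5 had no overlap between the groups, against 48.6%. The median log2 fold change of the 5 genes was -0.07 and that of all genes 0.11. The 4 of 5 genes without overlap were thus a larger share than in the table as a whole, on 5 genes and without a test. The 48.6% covers all genes tested whatever their counts, and no share is given for genes with counts like these.

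**Figure D2:**
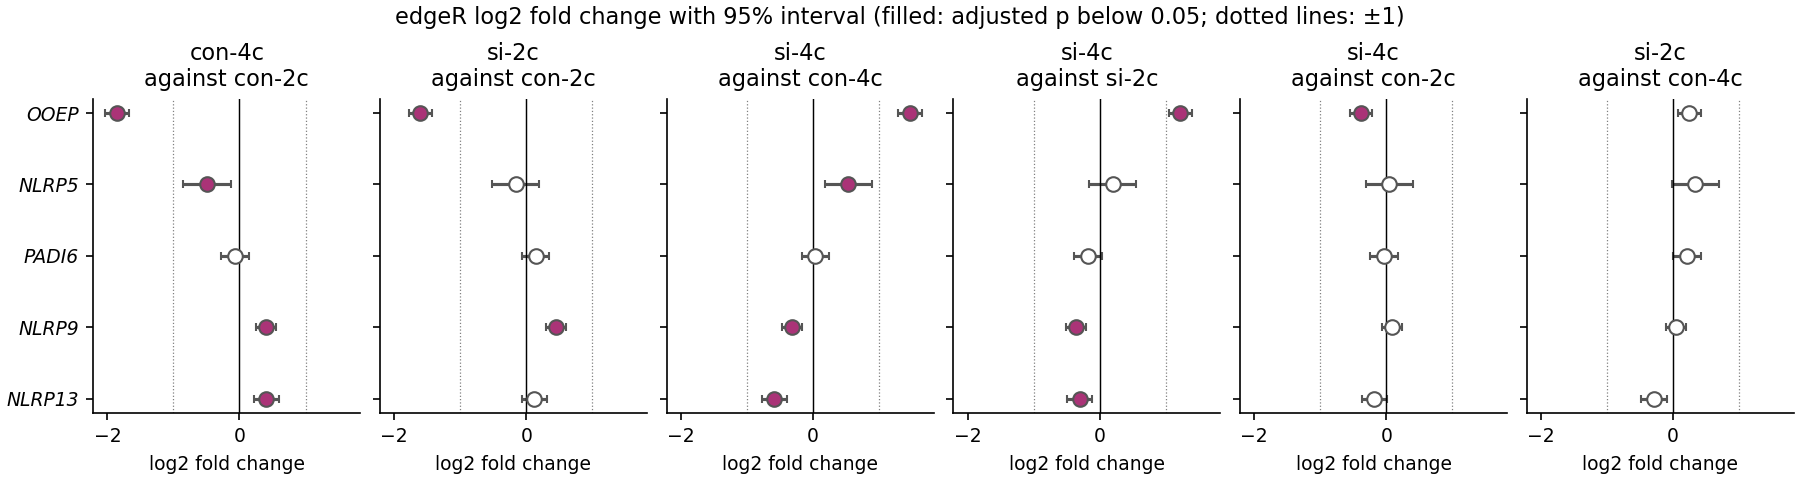
Log2 fold change of each gene (points) in the 6 comparisons between groups, with 95% intervals as bars. Filled points have an edgeR adjusted p below 0.05 and dotted lines mark a 2-fold difference. OOEP lies beyond the dotted lines in the first 4 panels (-1.85, -1.61, 1.47 and 1.22) and inside them in the crossed comparisons (-0.38 and 0.25).

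The next comparisons asked what changed with si-CCNB2 within a titled stage. In si-2c vs con-2c, OOEP fell to 0.329 times its control level and NLRP9 rose 1.37-fold, while NLRP5, PADI6 and NLRP13 did not pass the test. The log2 fold change was -1.61 for OOEP (SE 0.08, edgeR adjusted p 3.29e-10), the fourth smallest p among 324 genes called lower, and 0.45 for NLRP9 (SE 0.07, adjusted p 0.000111). Values for the other genes were 0.12 for NLRP13 (SE 0.09, 95% interval -0.07 to 0.31), 0.14 for PADI6 (SE 0.10, interval -0.07 to 0.35) and -0.16 for NLRP5 (SE 0.17, interval -0.51 to 0.20). All 3 si-2c libraries were above all con-2c libraries in NLRP13, although this difference had an edgeR adjusted p of 0.366. The call counts were 0 higher and 1 lower of 5, against 10.7% and 1.80% of all genes. With no minimum fold they were 1 and 1, against 16.6% and 12.3%, and 3 of 5 genes had no overlap, against 41.7%.

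In si-4c vs con-4c the directions of OOEP and NLRP9 were opposite to those in si-2c vs con-2c. OOEP rose 2.77-fold and NLRP5 rose 1.45-fold, NLRP9 and NLRP13 fell, and PADI6 did not pass the test. The log2 fold change of OOEP was 1.47 (SE 0.08, edgeR adjusted p 4.63e-10), ninth by p among 562 genes called higher. That of NLRP13 was -0.59 (SE 0.09, adjusted p 7.21e-05) and that of NLRP9 was -0.32 (SE 0.07, adjusted p 0.00194). NLRP5 rose by 0.54 (SE 0.17, edgeR adjusted p 0.0200), and did not pass without con-4c replicate 2 or 3 or si-4c replicate 1 or 3 (adjusted p 0.0501, 0.0964, 0.0792 and 0.0707). The PADI6 value was 0.04, with a 95% interval from -0.17 to 0.24. Of the 5 genes 1 was called higher and 0 lower, against 3.12% and 15.8% of all genes. With no minimum fold 2 were higher and 2 lower, against 15.1% and 21.7%, and 4 of 5 had no overlap, against 50.9%.

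Within the si libraries, si-4c vs si-2c, OOEP rose by 1.22 on the log2 scale (SE 0.08, edgeR adjusted p 8.72e-09), NLRP9 fell by 0.36 (SE 0.07, adjusted p 0.000906) and NLRP13 fell by 0.30 (SE 0.09, adjusted p 0.0195). NLRP13 did not pass without si-4c replicate 2 or 3 (adjusted p 0.102 and 0.105). PADI6 gave -0.18 (95% interval -0.38 to 0.03) and passed the test without si-2c replicate 3 (-0.27, edgeR adjusted p 0.0406). NLRP5 gave 0.20 (95% interval -0.15 to 0.55). Thus 1 of 5 genes was called higher and 0 lower, against 1.47% and 11.9% of all genes, and with no minimum fold 1 was higher and 2 lower, against 12.1% and 16.9%. For 3 of 5 genes the groups did not overlap, against 42.8%.

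These comparisons share libraries, so their directions are not separate pieces of evidence. The interaction, which is the si-4c minus si-2c difference less the con-4c minus con-2c difference, tests whether the stage difference was the same in si and con libraries. It was 3.07 for OOEP (SE 0.12, edgeR adjusted p 1.71e-12), the fourth smallest p among 1777 genes called higher. It was -0.77 for NLRP9 (SE 0.10, adjusted p 7.52e-06), -0.71 for NLRP13 (SE 0.13, adjusted p 0.000237) and 0.69 for NLRP5 (SE 0.24, adjusted p 0.0254). The NLRP5 interaction did not pass without con-4c replicate 3, si-2c replicate 1, or si-4c replicate 1 or 3 (edgeR adjusted p 0.0700, 0.0655, 0.0624 and 0.0577). For PADI6 it was -0.11, with a 95% interval from -0.40 to 0.19. The counts were 1 called higher and 0 lower of 5, against 9.87% and 22.5% of all genes, and with no minimum fold 2 and 2, against 18.2% and 27.3%.

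Across the titles the differences were small. In si-4c vs con-2c, OOEP was lower by less than 2-fold, with 0.767 times the con-2c level, and the other 4 genes did not pass the test. The OOEP log2 fold change was -0.38 (SE 0.08, edgeR adjusted p 0.0379) with no overlap between the libraries. The size of this difference stayed between -0.42 and -0.33 in all the settings tried, but its adjusted p rose above 0.05 with any of 8 of the 12 libraries left out, to at most 0.174. The other values were 0.09 for NLRP9 (95% interval -0.06 to 0.24), -0.18 for NLRP13 (-0.37 to 0.01), 0.04 for NLRP5 (-0.31 to 0.40) and -0.03 for PADI6 (-0.24 to 0.18). Called were 0 of 5 genes in either direction by edgeR and by DESeq2 (at an unadjusted edgeR p below 0.05 there was 1, OOEP), against 0.0333% higher and 0.300% lower of all genes, and with no minimum fold 0 higher and 1 lower, against 0.106% and 0.567%. For 1 of 5 genes the groups did not overlap, against 14.1%.

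In si-2c vs con-4c none of the 5 genes passed edgeR's test at an adjusted p of 0.05, while at an unadjusted p below 0.05 there were 3 (OOEP, NLRP13 and PADI6), and DESeq2 passed 2 (OOEP as higher and NLRP13 as lower, at adjusted p 0.0326 and 0.00986, against 3.56% and 7.79% of all genes). OOEP was 0.25 higher on the log2 scale (SE 0.08, edgeR adjusted p 0.0820) and NLRP13 gave -0.29 (SE 0.09, adjusted p 0.0658), each with no overlap between the libraries. NLRP5 gave 0.34 (95% interval -0.02 to 0.70), PADI6 0.21 (0.0032 to 0.42) and NLRP9 0.05 (-0.10 to 0.19). OOEP passed without con-2c replicate 3 or si-2c replicate 3 (edgeR adjusted p 0.0480 and 0.0171), and NLRP13 without si-4c replicate 1 (0.0343). Of all genes 0.161% were called higher and 1.63% lower, and with no minimum fold 2.22% and 5.32%. For 2 of 5 genes the groups did not overlap, against 27.1%.

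A CPM is a share of the library, and in pooled embryos less RNA per cell cannot be told apart from fewer cells that carry it. The scaling mattered for the smaller differences. With plain library totals in place of TMM factors, the median log2 fold change of all genes moved from 0.11 to 0.38 for con-4c vs con-2c, from 0.12 to 0.52 for si-2c vs con-2c and from -0.11 to -0.37 for si-4c vs con-4c. Relative to that median, OOEP was at -1.96 with either scaling in the first of these, at -1.73 in the second and at 1.58 in the third. NLRP9 was at 0.30 (TMM) and 0.29 (totals), 0.33 and -0.20 in the same order, and NLRP5 at -0.61 (TMM) and -0.60 (totals), -0.28 and 0.65. The median interaction of all genes moved from -0.23 to -0.88, and relative to it NLRP5 was at 0.93 (TMM) and 0.92 (totals). PADI6 was at 0.02 (TMM) and 0.01 (totals) relative to the median of si-2c vs con-2c, and NLRP13 at -0.0038 with either scaling.

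Without that centring, NLRP5 no longer passed the test with library totals in con-4c vs con-2c (-0.22, edgeR adjusted p 0.361), in si-4c vs con-4c (0.28, adjusted p 0.232) or in the interaction (0.04, adjusted p 0.914), and its value went from -0.16 to 0.24 for si-2c vs con-2c and from 0.20 to -0.18 for si-4c vs si-2c. PADI6 passed it as higher in si-2c than in con-2c (0.53, edgeR adjusted p 0.00168), and as lower in si-4c than in si-2c (-0.55, adjusted p 0.00126) and in the interaction (-0.75, adjusted p 0.00104). NLRP13 passed it in si-2c vs con-2c (0.51, edgeR adjusted p 0.000719), and OOEP in si-2c vs con-4c (0.37, adjusted p 0.00504). The PADI6 values that did not pass turned from -0.07 to 0.20 for con-4c vs con-2c and from 0.04 to -0.22 for si-4c vs con-4c. The shift of all genes moved with these passes and changes of sign, and with that median taken off, the values of the 5 genes differed between the scalings by at most 0.0138 in the 7 tests. Such closeness follows from the arithmetic, since a change of scaling shifts all genes nearly alike. It is therefore no check of which scaling, or which of these tests, is right. The directions of OOEP, NLRP9 and NLRP13 were the same with both scalings in each comparison within a stage or a treatment.

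Ratios of raw counts within a library need no scaling. The log2 ratio of OOEP to NLRP9 counts was 0.19 ± 0.15 for con-2c, -2.07 ± 0.07 for con-4c, -1.87 ± 0.21 for si-2c and -0.28 ± 0.10 for si-4c. It fell by 2.26 from con-2c to con-4c and by 2.06 from con-2c to si-2c, and si-4c lay 1.78 above con-4c, each with no overlap (exact permutation test, two-sided p = 0.1, the smallest p that 3 against 3 libraries allow). Between si-2c and con-4c the libraries overlapped (difference 0.20, exact permutation p = 0.3). The ratio thus has the same 2 sets of groups as the OOEP level.

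The ratio of OOEP to PADI6 counts, whose denominator varied least, was 3.66 ± 0.17, 1.87 ± 0.04, 1.91 ± 0.09 and 3.31 ± 0.11 on the log2 scale for the groups con-2c and con-4c and then si-2c and si-4c, in that order. Its values in con-4c and si-2c overlapped, and those of the other pairs of groups did not. OOEP to NLRP5 gave 7.08 ± 0.11, 5.74 ± 0.26, 5.64 ± 0.16 and 6.66 ± 0.18, and OOEP to NLRP13 gave 2.96 ± 0.09, 0.71 ± 0.10, 1.23 ± 0.19 and 2.77 ± 0.13. So OOEP fell relative to each of the 4 other genes between con-2c and con-4c, including NLRP5, whose direction was the same, with no overlap between the libraries. NLRP9 and NLRP13, which rose together in con-4c, kept a log2 ratio of 2.78 ± 0.11 for con-2c and 2.77 ± 0.07 for con-4c, and had 3.10 ± 0.05 for si-2c and 3.05 ± 0.23 for si-4c.

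**Figure D3:**
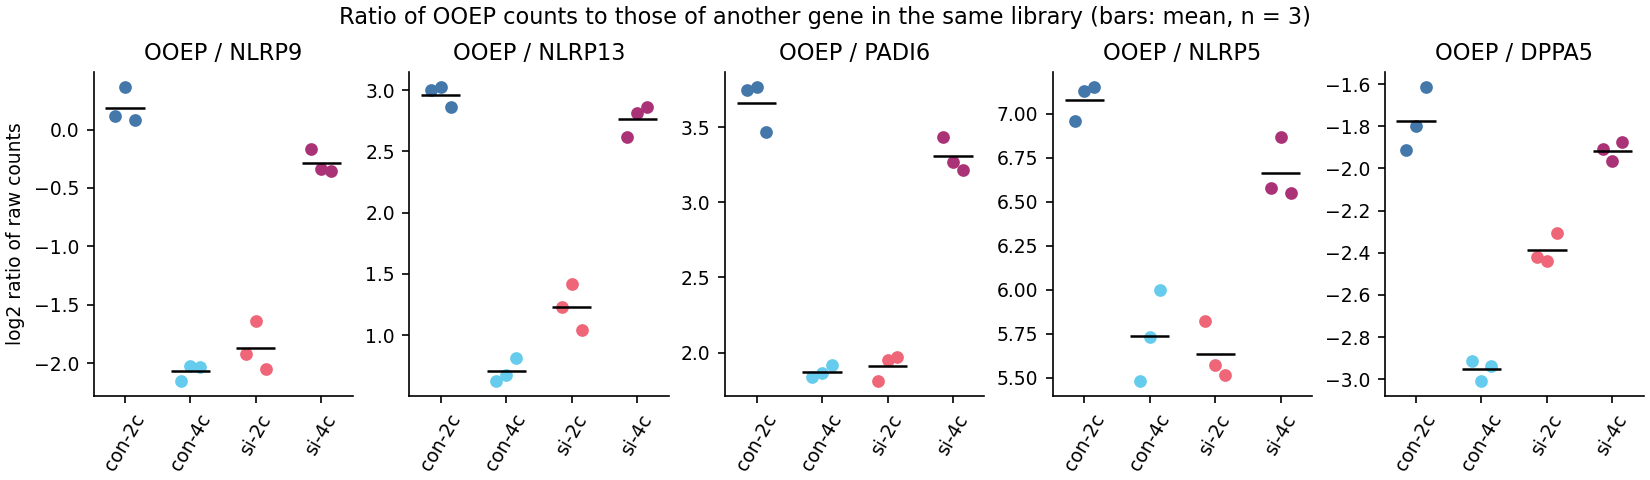
Log2 ratio of OOEP counts to the counts of another gene in the same library (points, with the mean of 3 libraries as a bar), by group and with an axis of its own in each panel. The ratios are high in con-2c and si-4c and low in con-4c and si-2c, and OOEP to DPPA5 has the smallest span, from -1.78 to -2.95.

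Over the 12 libraries, log2 CPM of OOEP and NLRP9 had a Pearson r of -0.963, OOEP and NLRP13 -0.736, and OOEP and NLRP5 0.707. NLRP9 and NLRP13 had 0.637, NLRP5 and NLRP9 -0.637, and NLRP5 and NLRP13 -0.642. PADI6 had between -0.09 and 0.26 with the other 4. The 12 points form 4 groups and share the scaling of their library, so these values describe the group differences above.

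OOEP stands at the end of a run of related genes on chromosome 1. In RefSeq order DPPA5, KHDC3L and OOEP follow each other, and DPPA5, which like OOEP encodes a KH-domain protein of early embryos, spans chr1:52986462-52987596. DPPA5 had 4594 ± 503 CPM for con-2c, 2875 ± 155 for con-4c, 2310 ± 341 for si-2c and 3873 ± 149 for si-4c. It fell by 0.68 on the log2 scale in con-4c vs con-2c (SE 0.10, edgeR adjusted p 5.56e-05) and by 0.99 for si-2c vs con-2c (SE 0.10, adjusted p 1.45e-06), and rose by 0.43 for si-4c vs con-4c (SE 0.10, adjusted p 0.00306). Its directions in these 3 comparisons were those of OOEP and its changes smaller. Across the titles DPPA5 gave -0.25 for si-4c vs con-2c and -0.32 for si-2c vs con-4c (edgeR adjusted p 0.358 and 0.0719), where OOEP gave -0.38 and 0.25. With library totals the DPPA5 difference for si-4c vs con-4c did not pass the test (0.17, edgeR adjusted p 0.0790). The log2 ratio of OOEP to DPPA5 counts was -1.78 ± 0.15, -2.95 ± 0.05, -2.39 ± 0.07 and -1.92 ± 0.05 (con-2c, con-4c, then si-2c, si-4c), with overlap only between con-2c and si-4c among the 6 pairs.

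On chromosome 6 NLRP11, NLRP4, NLRP13, NLRP8 and NLRP5 are consecutive, with NLRP9 farther off. Neighbors in this run did not all share a direction in con-4c vs con-2c. NLRP13 rose and so did NLRP8, next to it (0.65, SE 0.15, edgeR adjusted p 0.00198), while NLRP4 on its other side fell by 0.48 (SE 0.08, adjusted p 0.000188) and NLRP5, next to NLRP8, fell by 0.50 as given above. NLRP11 gave -0.20 (SE 0.10, edgeR adjusted p 0.129). In si-4c vs con-4c, NLRP4, NLRP11 and NLRP5 rose (0.40, 0.38 and 0.54), and NLRP8, NLRP13 and NLRP9 fell (-0.46, -0.59 and -0.32), all with an edgeR adjusted p below 0.05. With library totals NLRP4 no longer passed in con-4c vs con-2c (-0.21, edgeR adjusted p 0.0826) or in si-4c vs con-4c (0.14, adjusted p 0.249), NLRP11 did not pass in the latter (0.12, adjusted p 0.417), and the NLRP11 value in con-4c vs con-2c turned to 0.08. Across the titles none of NLRP4, NLRP8 and NLRP11 passed edgeR's test (adjusted p 0.124 or above). These genes are related in sequence, and how reads matching several of them were counted is not given in the sources used here, so their single values are uncertain to that extent.

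**Figure D4:**
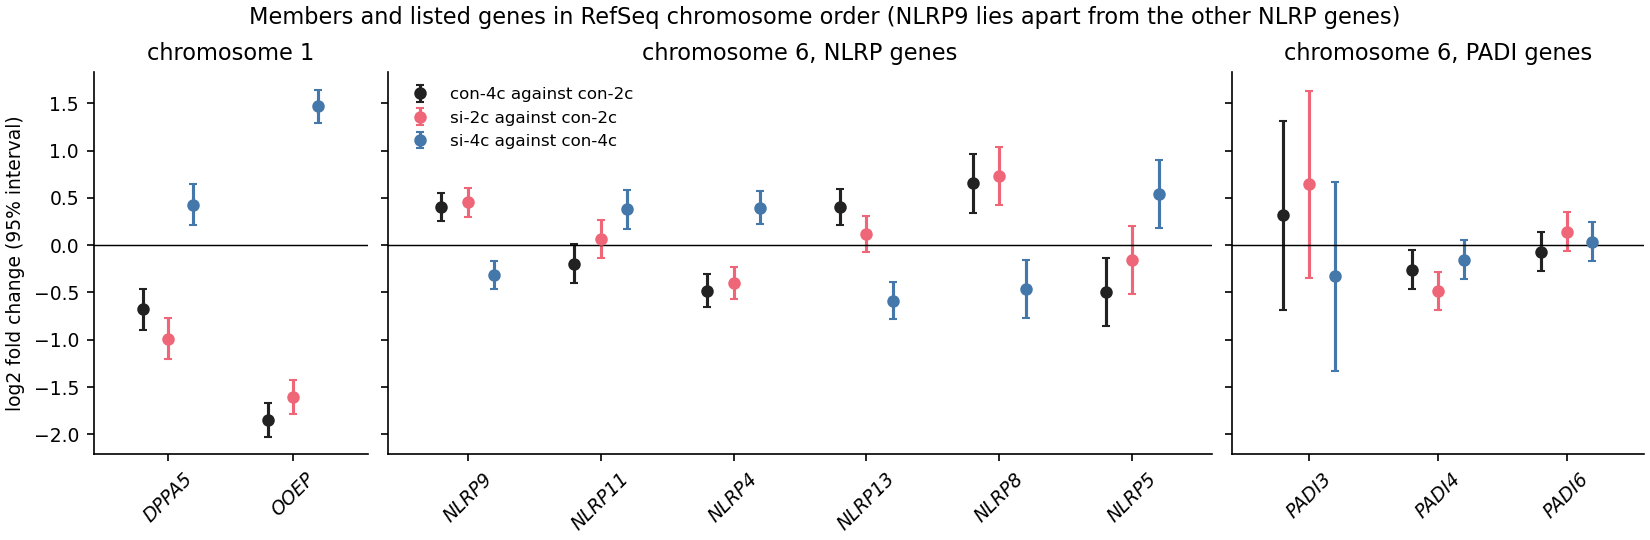
Log2 fold change (points, with 95% intervals as bars) of measured genes placed in their RefSeq chromosome order, in con-4c vs con-2c (black), si-2c vs con-2c (red) and si-4c vs con-4c (blue). DPPA5 and OOEP move in 1 direction in each comparison, whereas NLRP13 and NLRP8 lie opposite to NLRP4 and NLRP5 for con-4c vs con-2c (0.41 and 0.65 against -0.48 and -0.50).

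The wider NOD-like receptor family, most of which are sensors of innate immunity, had 11 of 18 listed genes in the table and 7 tested. In con-4c vs con-2c 1 of 7 was called higher and 0 lower (14.4% and 3.25% of all genes), and with no minimum fold 2 were higher and 2 lower (20.7% and 15.1%). The gene called was NLRX1, a mitochondrial family member, with 0 counts in all con-2c libraries and 16 to 54 in the con-4c libraries. It passed the filter on low counts through the con-4c libraries, in which it was high, so the call is not read as support. NLRP3, the inflammasome sensor, had 13.4 ± 2.3 CPM for con-2c and 7.44 ± 1.1 for con-4c and fell by 0.85 (SE 0.20, edgeR adjusted p 0.00262). NOD1 (-0.21, adjusted p 0.560) and NLRC5 (0.58, adjusted p 0.468) did not pass the edgeR test. In si-2c vs con-2c and in si-4c vs con-4c 0 of 7 were called (10.7% higher and 1.80% lower, and 3.12% and 15.8%, of all genes), with 1 higher and 1 lower (16.6% and 12.3% of all genes), and 3 higher and 1 lower (15.1% and 21.7%), at no minimum fold. Library totals turned the latter counts into 3 and 0 (33.6% and 3.77% of all genes), and 1 and 1 (7.61% and 29.4%). In si-2c vs con-2c 2 of 7 were called higher with library totals (16.8% of all genes) and 1 with DESeq2 (12.6%).

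PADI6 is last in a run of PADI2, PADI1, PADI3, PADI4 and PADI6 on chromosome 6. PADI4, the histone-modifying member, fell by 0.26 for con-4c vs con-2c (SE 0.10, edgeR adjusted p 0.0467) and by 0.48 for si-2c vs con-2c (SE 0.10, adjusted p 0.00110), where PADI6 gave 0.14. With library totals neither PADI4 value passed, and the first turned to 0.02 (edgeR adjusted p 0.921 and 0.540). PADI3 (0.31, SE 0.47, adjusted p 0.662 for con-4c vs con-2c) was near 1 CPM. Of all 21 listed relatives of the 9 genes (of OOEP, PADI6, TLE6 and ZBED3), 14 were in the table and 13 tested, 4 of them called higher and 0 lower in con-4c vs con-2c, against 14.4% and 3.25% of all genes. These were TLE4 (1.01), a co-repressor related to TLE6, and ZBED5 (1.19), ZBED6 (2.44) and ZBED8, of the zinc finger family of ZBED3 (edgeR adjusted p between 1.92e-06 and 0.00643). ZBED6 had 6 to 14 counts in the con-2c and 30 to 62 in the con-4c libraries. ZBED8 had 0 to 4 counts for con-2c and 0 to 100 for con-4c, with overlap between the libraries, and it passed the filter through the groups in which it was high, so no fold is given. TLE2, which precedes TLE6 on chromosome 2 in RefSeq, fell by 0.75 (SE 0.13, edgeR adjusted p 0.000149). TLE7, a TLE gene that was not on this list and was chosen after its values were seen, had 48.7 ± 5.7 CPM for con-2c, 20.5 ± 3.0 for con-4c, 28.6 ± 1.6 for si-2c and 42.9 ± 3.5 for si-4c. It was called lower for con-4c vs con-2c (-1.24, SE 0.12, edgeR adjusted p 3.94e-07) and higher for si-4c vs con-4c (1.06, SE 0.12, adjusted p 2.46e-06). KHDC4, a KH-domain gene also outside the list, did not pass in con-4c vs con-2c, si-2c vs con-2c or si-4c vs con-4c (0.35, -0.17 and -0.35, edgeR adjusted p 0.285, 0.669 and 0.269), and NLRP2B had at most 1 count in any library. With library totals both TLE7 differences were under 2-fold and still passed the test (-0.98 and 0.81, edgeR adjusted p 1.50e-05 and 0.000111).

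Genes that encode proteins reported to work with the complex, among them DNMT1 and UHRF1 (maintenance of DNA methylation), 14-3-3 proteins, ubiquitin-conjugating enzymes and tubulins, formed a list of 21, of which 17 were tested. In con-4c vs con-2c 1 was called higher and 0 lower (14.4% and 3.25% of all genes), and with no minimum fold 2 were higher and 6 lower (20.7% and 15.1%). The median log2 fold change was -0.18, beside 0.11 for all genes. TUBB, a beta-tubulin, rose from 21.7 ± 3.5 to 60.7 ± 4.0 CPM (1.48, SE 0.12, edgeR adjusted p 6.64e-08). The 6 that fell were YWHAE (-0.92), UBE2D3 (-0.72), DNMT1 (-0.64), UBE2D1 (-0.54), YWHAH (-0.46) and YWHAZ (-0.41), at edgeR adjusted p between 1.68e-06 and 0.00181, and UHRF1 gave -0.41 (adjusted p 0.0744). In si-4c vs con-4c 6 of 17 were higher and 2 lower at no minimum fold (15.1% and 21.7% of all genes), and in si-2c vs con-2c 4 and 6 (16.6% and 12.3%). These splits moved with library totals, to 6 higher and 4 lower for con-4c vs con-2c (29.2% and 7.37% of all genes), 4 and 4 for si-4c vs con-4c (7.61% and 29.4%) and 8 and 2 for si-2c vs con-2c (33.6% and 3.77%). The list median in con-4c vs con-2c became 0.09, beside 0.38 for all genes, so it was below that of all genes with both scalings.

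Of 28 listed oocyte factors, maternal transcripts that include zona pellucida proteins and regulators of maternal mRNA, 21 were tested. In con-4c vs con-2c 0 were called higher and 3 lower, namely OOSP2, an oocyte-secreted protein (-1.46), BTG4, the adaptor for removal of maternal mRNA (-1.27), and ZP4, of the egg coat (-1.09), at edgeR adjusted p between 7.69e-08 and 1.19e-06. Of all genes 14.4% were called higher and 3.25% lower. With no minimum fold 0 of 21 were higher and 12 lower, against 20.7% and 15.1% of all genes, and the list median was -0.37. It was -0.36 for si-2c vs con-2c (1 higher, 12 lower), 0.47 for si-4c vs con-4c (13 higher, 0 lower) and 0.08 for si-4c vs con-2c (0 and 0). The shares of all genes in these 3 comparisons were 16.6% higher and 12.3% lower, 15.1% and 21.7%, and 0.106% and 0.567%. With library totals 1 of the 3 was called lower in con-4c vs con-2c (OOSP2, -1.18, against 1.27% of all genes), and BTG4 (-0.99) and ZP4 (-0.81) were below 2-fold. At no minimum fold the split became 1 higher and 7 lower in con-4c vs con-2c (median -0.12), 5 and 5 in si-2c vs con-2c (median 0.02) and 6 and 0 in si-4c vs con-4c (median 0.21), where the shares of all genes were 29.2% and 7.37%, 33.6% and 3.77%, and 7.61% and 29.4%, and their medians 0.38, 0.52 and -0.37. With TMM, the OOEP values of -1.85, -1.61, 1.47 and -0.38 in the same comparisons were on the side of the list median in the first 3, and the NLRP9 values of 0.41, 0.45 and -0.32 were on the other side. With library totals these sides were exchanged in si-2c vs con-2c, where the list median was 0.02, OOEP gave -1.21 and NLRP9 gave 0.85.

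The genes with a symbol and a mean of at least 10 CPM in some group whose log2 CPM followed each member most closely over the 12 libraries were picked from 5776. For OOEP they were ACP1, DPY30 and HPF1, each with a Pearson r of 0.994. For NLRP9 they were WDFY3 (0.976), PHF8 (0.973) and NPEPPS (0.970). For NLRP13 they were MAPRE2 (0.960), PRDX4 (0.951) and POLR1D (0.943).

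The closest genes were less near for the other 2. NLRP5 had KLHL3 (0.934), NEK5 (0.895) and XIRP2 (0.889), and PADI6 had FOXK2 (0.921), WHAMM (0.909) and TRMT10A (0.889). These r values are the highest of 5776 and rest on 12 libraries in 4 groups, so they describe likeness in these libraries only.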

How the data were processed

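The authors deposited 1 table with the unnormalized read count of each Ensembl gene in 12 libraries. The submitters' processing notes name cutadapt 1.9, HISAT2 2.2.1, StringTie 2.1.6, DESeq2, edgeR and the build Sscrofa11.1, without their roles. Whether strand was used, which annotation release was counted and the handling of reads that match several genes are not given in the sources used here. Reads carried no molecular identifiers. Columns were mapped by the library titles.

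The test was the one of edgeR 4.0.16 (R 4.3.3), with genes kept by filterByExpr (17995), TMM factors (0.852 to 1.21), a quasi-likelihood fit of 4 group means to all 12 libraries, and Benjamini-Hochberg adjustment over all genes tested. Called genes differed at least 2-fold at an adjusted p below 0.05. SE was the log2 fold change over the square root of F, and 95% intervals use the t quantile at the total degrees of freedom of the fit. CPM and log2 CPM (prior count 2) were computed here. The fit was also run on simulated data, with the same spread for all genes and equal numbers of genes raised and lowered. That run does not cover the uneven shares of higher and lower genes given above. Replicate libraries differed by more than counting noise (chi-square per degree of freedom 7.29 to 43.3), so none was merged. Gene positions were matched by symbol to RefSeq Sscrofa11.1, which gives gene spans but no transcript lengths, so the levels of the members are not compared with each other.

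The members and lists were chosen with earlier results of these data known. Named were all members, up to 8 genes per list with the largest change in con-4c vs con-2c and at least 1 CPM in some group, and 3 genes most like each member. The alternatives were library totals, RLE factors, DESeq2 1.42.0, 2 other filters, no minimum fold, the 2 groups alone, a replicate block, and each library left out.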

Additional observations from a re-analysis of the deposited data

Results flagged for a closer look

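For 4 of the 5 genes the difference between the titled stages was not the same in si and con libraries by the interaction term of the edgeR fit, a term that 18.2% of all genes passed as higher and 27.3% as lower. The interaction was 3.07 on the log2 scale for OOEP (1027 and 440 CPM for si-4c and si-2c against 371 and 1338 CPM for con-4c and con-2c), -0.77 for NLRP9, -0.71 for NLRP13 and 0.69 for NLRP5, at adjusted p 1.71e-12, 7.52e-06, 0.000237 and 0.0254. The stage difference had opposite signs in si and con libraries for each of these genes, although the NLRP5 difference within si (0.20) did not pass the test. With library totals the NLRP5 values had the same sign (-0.22 within con and -0.18 within si). The NLRP5 interaction was then 0.04 (edgeR adjusted p 0.914), so it depended on the scaling. The median interaction of all genes moved from -0.23 to -0.88. Relative to that median, NLRP5 was at 0.93 with TMM and 0.92 with library totals. Such closeness follows from the arithmetic, since a change of scaling shifts all genes nearly alike. It is therefore no check of the NLRP5 interaction. The interactions of EIF1AX and DPPA2 were -3.55 and -3.36, and the tissue label contradicts the title in all 12 libraries, so whether the interaction belongs to the treatment or to the naming of libraries was not tested with this table. The gap of a single library to its group was not tested, since groups had 3 libraries.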

How the results depend on the processing

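OOEP kept its side of both thresholds in the settings tried in con-4c vs con-2c, si-2c vs con-2c and si-4c vs con-4c. With library totals, 0 genes were called in si-4c vs si-2c (OOEP 0.84, edgeR adjusted p 1.83e-07) and 3 in the interaction (also NLRP9 -1.42 and NLRP13 -1.36). The median of all genes with library totals was -0.51 in si-4c vs si-2c and -0.88 in the interaction. The shares of all genes called there are not given here, so these counts are not read as a result about the members. With no minimum fold, members called were 4 for con-4c vs con-2c, 2 for si-2c vs con-2c, 4 for si-4c vs con-4c, 3 for si-4c vs si-2c, 1 for si-4c vs con-2c and 4 in the interaction. At no minimum fold, library totals gave 4 members in si-2c vs con-2c (33.6% of all genes higher and 3.77% lower) and 1 for si-2c vs con-4c. DESeq2 (3.56% and 7.79% of all genes) and the filter at 10 CPM in 3 libraries gave 2 in the latter. For si-2c vs con-4c the shares of all genes with library totals and with that filter are not given here. Leaving out single libraries gave 0 to 1 for si-4c vs con-2c and 0 to 1 for si-2c vs con-4c. NLRP5 did not pass the 10 CPM filter, which was set on CPM of plain library totals, and the 2 groups alone cannot give the interaction.

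Library totals moved the mean CPM by over 1 SD, to 1189, 398, 513 and 921 for OOEP (con-2c, con-4c, then si-2c, si-4c) and 1046, 1669.7, 1879 and 1123 for NLRP9 in that order. NLRP13 went to 153, 244 and 218 in the first 3, PADI6 to 109, 137 and 93.2 in the last 3, and NLRP5 to 8.76 for con-2c and 10.3 for si-2c. By Spearman's rho, 1, 1, 0, 1 and 0 of the 3 genes most like OOEP, NLRP5, PADI6, NLRP9 and NLRP13 stayed in the first 3.

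No pairing by replicate number was seen in the counts: deviations of same-numbered libraries had r between -0.05 and 0.03, and 3 of 12 libraries were nearest to their own number. These values cannot show whether same-numbered libraries came from the same culture. With a replicate block, and likewise with only the 2 groups compared, 0 members passed at no minimum fold in si-4c vs con-2c (OOEP -0.38, edgeR adjusted p 0.0713 with the block and 0.0738 with the 2 groups). The block changed no other call. The limits are 3 libraries per group, 182 to 405 counts for NLRP5, and TMM fold changes of under 2-fold in 4 of the 5 genes. At no minimum fold, library totals changed calls of NLRP5, PADI6, NLRP13 and OOEP and none of NLRP9.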
